A study of Homo sapiens with 9 samples.

Results

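The subunits of the respiratory chain and ATP synthase were followed in MEG-01, a human megakaryoblast line from the blast crisis of chronic myeloid leukaemia. Members were the protein-coding genes of the deposited tables whose symbols name subunits of complexes I to V. Of 63241 genes listed, 282 symbols matched the subunit pattern, and 102 were left once 173 pseudogenes, 6 non-coding genes and 1 entry without a gene type were dropped. Of these 102 members, 13 lie on the mitochondrial genome and 89 in the nucleus, and 2 of the nuclear ones are read-through genes (ATP5MF-PTCD1 and NDUFC2-KCTD14).

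Polyadenylated RNA was sequenced from 3 groups of 3 libraries: cells given arsenic disulfide (As2S2), cells given phorbol 12-myristate 13-acetate (PMA, a protein kinase C activator widely used to drive megakaryocytic differentiation) and control cells. The study's title places As2S2 in a SRC/MEK/ERK pathway of platelet formation. All groups are the same line, dose and length of treatment are missing from the labels, which also do not say that libraries of a group were separate cultures. The p-values therefore rest on library-to-library spread alone, which may be technical. Library totals ran from 18.2 to 20.4, in units of 1e6 estimated counts.

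The respiratory chain is built from 2 genomes. Mitochondrial DNA encodes a few membrane-embedded subunits of complexes I, III, IV and V, is transcribed as long polycistronic RNAs that are cut into single mRNAs, and leaves complex II entirely to nuclear genes. Nuclear subunits are made in the cytosol and imported, so the complexes need matched supplies from both sides. Complex I oxidises NADH, complex II succinate, complex III passes electrons to cytochrome c, complex IV reduces oxygen, and complex V makes ATP with the proton gradient. In bulk RNA, fewer cells expressing a gene and less RNA per cell cannot be told apart.

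In their own groups, As2S2 replicate 1 and control replicate 2 were outlying libraries. Pairs that included either had a chi-square per gene of 12 to 15.2, against 2.42 to 3.46 for all other pairs within groups, and both lay at the far ends of principal component 3, which held 4.61% of the variance. Without both of them, As2S2 and control lay on opposite sides of that component, so this axis and the treatment then cannot be told apart. The defining megakaryocyte genes ITGA2B (330 to 788 CPM, scaled counts per 1e6, over the 9 libraries), TAL1, GFI1B and GATA1 were present and PF4 was at or near 0. The granulocyte markers MPO, ELANE, AZU1 and PRTN3 summed to at most 0.157 CPM with As2S2, 0.116 with PMA and 0.362 in control. Of 4 monocyte markers, 3 rose with PMA and 2, CD68 and CSF1R, with As2S2. Their summed level was 727 to 741 CPM in PMA, 328 to 378 CPM in As2S2 and 277 to 317 CPM in control libraries. Most of it was CD68. What part these markers have in the results was not tested.

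Some mitochondrial reading frames share bases, which bears on how reads are divided between them. The shared stretches are printed in capitals with 20 flanking bases on each side, from GENCODE 29 transcripts on GRCh38, plus strand, at M:8507-8592 (overlap of 46 bases, 8527 to 8572) and M:10740-10786 (overlap of 7 bases, 10760 to 10766). MT-ATP6 and MT-CO3 share 1 base, at 9207, which is not printed.
MT-ATP8 into MT-ATP6: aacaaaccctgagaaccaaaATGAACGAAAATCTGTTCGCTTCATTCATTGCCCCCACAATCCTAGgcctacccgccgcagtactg
MT-ND4L into MT-ND4: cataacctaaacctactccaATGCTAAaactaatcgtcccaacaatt
MT-ATP8 and MT-ATP6, and MT-ND4L and MT-ND4, are each translated from 1 bicistronic mRNA, so their separate values depend on how the authors' counting split reads between them. Nuclear copies of mitochondrial sequence take reads too: MTATP6P1, a pseudogene on chromosome 1, had 262 to 376 CPM. No source used here gives the strand setting of the counting, so reads of MT-ND6, the only member on the minus strand, cannot be told apart from antisense RNA.

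Promoters of the nuclear members were searched for motifs of regulators of respiratory genes. Matches were not split by call, and a link between motifs and the PMA changes was not tested. RefSeq promoters (GRCh38.p14, 250 bases before to 50 after the start) were found for 70 of the 89 nuclear members. On both strands, the NRF1 motif (GCGC, any pair of bases, GCGC; its own reverse complement) occurred in 18 of the 70 (25.7%), against 8.78% of 27305 promoters. CCGGAAG (GABP) occurred in 20 (28.6%), against 10.7%, and AAGATGGC (YY1) in 11 (15.7%), against 3.03%. At least 1 of these motifs was in 40 (57.1%), against 19.9% of all promoters. A match is a description and shows no binding. The promoters of UQCR11 and SDHA held the most matches, 4 each, and COX7B, the member with the highest fold change under PMA, held none; capitals mark the matches, 5′ to 3′ on the gene's strand. They lie at chr19:1605413-1605712 (minus strand), chr5:218070-218369 (plus) and chrX:77899218-77899517 (plus).
UQCR11: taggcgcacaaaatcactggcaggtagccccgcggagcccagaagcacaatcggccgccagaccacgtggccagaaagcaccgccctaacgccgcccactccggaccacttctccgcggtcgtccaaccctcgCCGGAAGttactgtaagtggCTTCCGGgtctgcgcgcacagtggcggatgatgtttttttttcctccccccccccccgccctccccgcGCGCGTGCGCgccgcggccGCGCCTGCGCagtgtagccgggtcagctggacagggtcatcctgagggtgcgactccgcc
SDHA: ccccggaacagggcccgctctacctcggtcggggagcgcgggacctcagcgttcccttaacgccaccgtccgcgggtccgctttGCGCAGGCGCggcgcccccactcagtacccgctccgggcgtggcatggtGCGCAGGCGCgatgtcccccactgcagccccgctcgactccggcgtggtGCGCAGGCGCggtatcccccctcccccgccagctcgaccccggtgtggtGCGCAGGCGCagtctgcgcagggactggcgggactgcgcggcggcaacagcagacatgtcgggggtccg
COX7B: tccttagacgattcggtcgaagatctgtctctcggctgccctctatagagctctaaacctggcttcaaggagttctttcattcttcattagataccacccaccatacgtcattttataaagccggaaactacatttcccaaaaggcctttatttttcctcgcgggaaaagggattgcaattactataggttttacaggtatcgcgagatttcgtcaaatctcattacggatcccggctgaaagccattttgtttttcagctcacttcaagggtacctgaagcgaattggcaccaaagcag

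Of the 102 members, 94 passed the filter on low counts (81 nuclear, all 13 mitochondrial) and were tested with edgeR's quasi-likelihood test among 14592 genes, a change being called at a Benjamini-Hochberg adjusted p under 0.05. COX4I2, COX6A2, COX7A1, COX8C and ATP5MGL had no counts in any of the 9 libraries, and COX6B2, COX7B2 and UQCRHL were below the filter.

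With As2S2, the 13 mitochondrial mRNAs did not move as a block. Of the 7 complex I transcripts, 6 were higher and 1, MT-ND2, was lower. Those of complexes III and IV did not pass, and of the complex V pair MT-ATP8 was lower and MT-ATP6 did not pass. Of all genes tested, 20.3% were called higher and 19.6% lower. Among the 13, 6 were higher and 2 lower, with a median log2 fold change of 0.03, against a median of 0 over all genes; 39.9% of genes changed in either direction.

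MT-ND6, a membrane subunit of complex I, had 638, 656 and 733 CPM with As2S2, against 470, 428 and 415 CPM in control. Every As2S2 library lay above every control library, and the log2 fold change was 0.63 ± 0.07 (SE, edgeR adjusted p = 7.76e-06). MT-ND5, a proton-pumping subunit, had 2795, 2924 and 3217 CPM with As2S2, against 2308, 1896 and 2072 CPM in control, again without overlap (0.51 ± 0.08, edgeR adjusted p = 0.000111). MT-ND3 (0.36), MT-ND1 (0.33), MT-ND4L (0.33) and MT-ND4 (0.29) were also higher on the log2 scale. MT-ND4L kept no call once the trend with transcript length was taken out of each library (0.15, edgeR adjusted p = 0.199).

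MT-ND2, another complex I subunit, went the other way, with 2957, 2926 and 2889 CPM in As2S2 libraries and 3445, 3341 and 3218 CPM in control libraries. These groups did not overlap, and the log2 fold change was -0.19 ± 0.06 (edgeR adjusted p = 0.0221). MT-ATP8, an accessory membrane subunit of ATP synthase, had 239, 189 and 177 CPM with As2S2, against 241, 271 and 230 CPM in control (-0.30 ± 0.10, edgeR adjusted p = 0.0287), and its groups overlapped. Without control replicate 1, the edgeR adjusted p was 0.0724 for MT-ND2 and 0.0552 for MT-ATP8; both calls were also lost without As2S2 replicate 2 or 3, and that of MT-ATP8 without control replicate 2 (-0.22, edgeR adjusted p = 0.0723). MT-ATP6, the proton-channel subunit, stood at a log2 fold change of -0.19 and did not pass, but passed without As2S2 replicate 1 (-0.30, edgeR adjusted p = 0.036). MT-CYB (-0.01), MT-CO1 (0.03), MT-CO2 (-0.03) and MT-CO3 (-0.04) did not pass.

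With PMA, 11 of the 13 mitochondrial mRNAs were higher and none was called lower, where 30.8% of all genes were called higher and 31.1% lower (61.9% in either direction). The median of the 13 was 0.53 on the log2 scale, against 0.005 over all genes. MT-ATP6 (0.04) and MT-ATP8 (-0.23, edgeR adjusted p = 0.0548) did not pass. MT-ATP8 lay near the threshold and was called lower under several alternatives, among them the replicate block (-0.24, edgeR adjusted p = 0.0244), RLE scaling (adjusted p = 0.0474), DESeq2 (adjusted p = 0.0463), no filter (-0.28), only the 2 groups compared (-0.24), and without As2S2 replicate 1 (-0.24) or 3 (-0.24), PMA replicate 1 (-0.30) or control replicate 3 (-0.29). The authors' deposited table also has it lower, with an adjusted p of 0.00274.

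MT-ND3, a small membrane subunit of complex I, had 4825, 4683 and 4747 CPM with PMA, against 2262, 2439 and 2378 CPM in control. All PMA values were above all control values, and the log2 fold change was 1.01 ± 0.06 (edgeR adjusted p = 1.02e-09). MT-CO3, a core subunit of cytochrome c oxidase, had 23269, 24196 and 23693 CPM with PMA, against 13484, 16695 and 14207 CPM in control (0.68 ± 0.08, edgeR adjusted p = 1.85e-06). MT-CO2, which takes electrons from cytochrome c, rose by 0.64 and MT-CO1, the catalytic subunit, by 0.32 on the log2 scale. MT-CYB, the membrane core of complex III, rose by 0.53. MT-ND1 (0.84), MT-ND6 (0.83), MT-ND5 (0.66), MT-ND4 (0.51), MT-ND4L (0.42) and MT-ND2 (0.35) made up the rest of the rise.

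**Figure D1:**
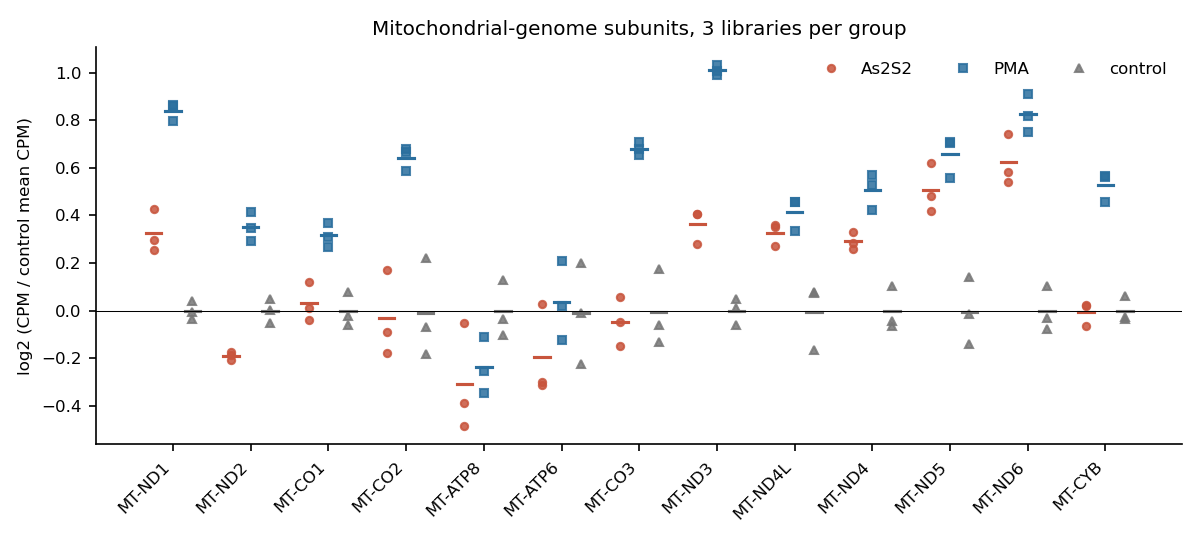
The y axis gives the log2 ratio of CPM to the control mean for each of the 13 mitochondrial mRNAs (x axis, in genome order), with 1 point per library and a bar at the group mean for As2S2, PMA and control. The PMA points of MT-ND3 lie highest, and the As2S2 points of MT-ND2 lie below all of its control points.

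The PMA contrast carried a trend with transcript length across all genes, and the members are short. In 5 equal classes of effective length (the ratio of count to TPM), shortest to longest, the median log2 fold change of all genes was 0.35, 0.11, 0.007, -0.14 and -0.33 for PMA, and between -0.01 and 0.01 for As2S2. Of the tested members, 60 of 81 nuclear and 10 of 13 mitochondrial ones were in the shortest class. In that class, the nuclear members' median under PMA was 0.74, against 0.35 for all genes. Of all genes in it, 45.5% were called higher and 14.1% lower with PMA. With the trend removed, 9 mitochondrial members were higher and 3 lower with PMA: MT-ND4L turned to -0.38 (edgeR adjusted p = 0.00138), MT-ATP6 to -0.38 (edgeR adjusted p = 0.00443) and MT-ATP8 stood at -1.19 (edgeR adjusted p = 4.26e-08). MT-ND2 then did not pass (0.09). MT-ATP8 and MT-ND4L are the shortest of the 13, at 207 and 297 bases. How well the fitted trend holds at such lengths was not tested. The part of length in the PMA result beyond these values was not tested.

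**Figure D2:**
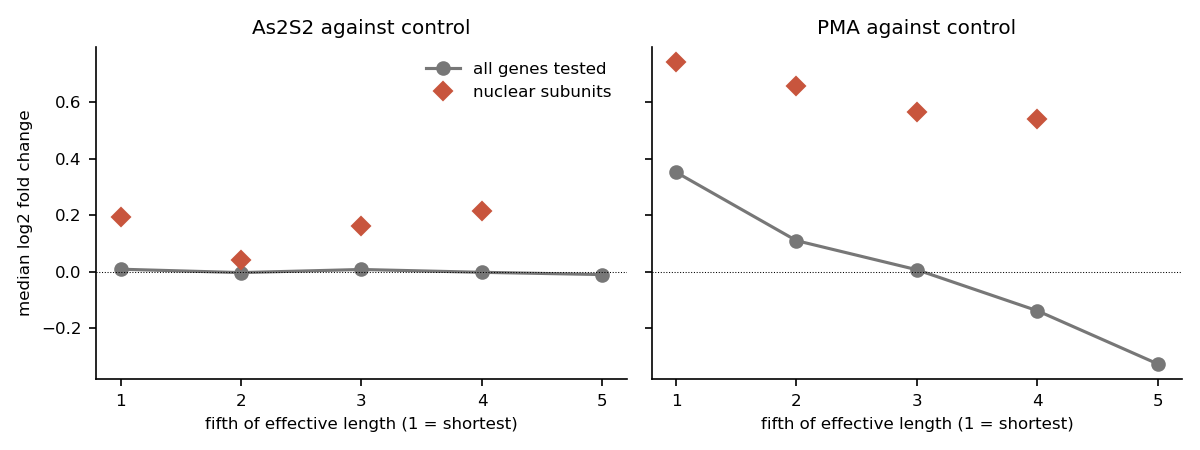
Median log2 fold change (y axis) by class of effective length (x axis, 5 classes, 1 is the shortest) for all genes tested (line) and for nuclear subunits (diamonds; the longest class holds none), with As2S2 against control on the left and PMA against control on the right. The line falls from 0.35 to -0.33 for PMA and stays between -0.01 and 0.01 for As2S2, and the nuclear subunits lie above the line in every class that holds them in both panels.

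As a share of the library, mitochondrial-genome subunits took 6.46, 5.90 and 6.32% of counts with As2S2, 7.68, 7.78 and 7.61% with PMA, and 6.34, 6.46 and 6.21% in control. The PMA libraries were above all others, while As2S2 and control overlapped. Nuclear subunits took 1.76, 1.78 and 1.77% with As2S2, 2.25, 2.23 and 2.22% with PMA, and 1.54, 1.62 and 1.59% in control, with no overlap between any of the groups. Per length, in summed TPM (the authors' length-scaled unit), the nuclear to mitochondrial ratio was 0.257 ± 0.017 with As2S2, 0.275 ± 0.0024 with PMA and 0.217 ± 0.0083 in control (SD, n = 3 each). Both treated groups lay above control without overlap and overlapped each other. The mitochondrial sums of TPM, 129122 with As2S2, 135217 with PMA and 135824 in control on average, overlapped between all groups. The nuclear sums, 33124, 37138 and 29398, did not. In summed CPM the mitochondrial means were 60967 with As2S2, 85189 with PMA and 58652 in control, and PMA overlapped neither other group. On deposited TPM the median log2 fold change of all genes was itself -0.399 with PMA. The TPM sums and their ratio lean on single transcripts. Without MT-ATP8 and UQCRH, the highest of each side by TPM, the log2 difference from control was 0.16 with As2S2 and 0.13 with PMA. With them it was 0.25 and 0.34. MT-ATP8 is 207 bases long, and TPM divide by effective length. Together with MT-ATP6 it held 5.51% of mitochondrial subunit counts in control.

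**Figure D3:**
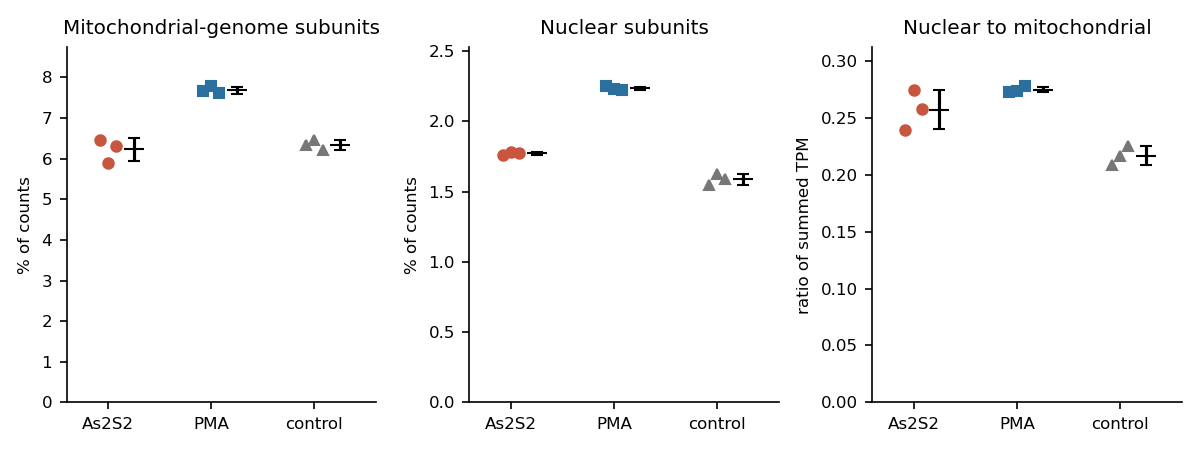
Left to right, the y axes give the percent of counts on mitochondrial-genome subunits, the percent on nuclear subunits, and the ratio of their summed TPM; points are libraries, with the mean and SD of 3 beside them, for As2S2, PMA and control (x axis). The mitochondrial share overlaps between As2S2 and control, and the nuclear share separates all groups.

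The make-up of the mitochondrial mRNA pool also differed. MT-ND transcripts held 29.7 ± 1.2% of mitochondrial subunit counts with As2S2, 27.4 ± 0.51% with PMA and 25.8 ± 2.0% in control (SD, n = 3 each), and As2S2 did not overlap control. MT-ATP transcripts held 4.64 ± 0.54% with As2S2, 3.86 ± 0.37% with PMA and 5.51 ± 0.50% in control, and PMA did not overlap control.

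Nuclear members leaned upward with As2S2 and rose broadly with PMA. With As2S2, 32 of 81 were higher (39.5%), 8 lower (9.88%) and 41 did not pass, with a median log2 fold change of 0.16. With PMA, 68 were higher (84%), 4 lower (4.94%) and 9 did not pass, with a median of 0.72. The shares over all genes were 20.3% higher and 19.6% lower with As2S2, and 30.8% and 31.1% with PMA. They are also the background for the complexes below. In the shortest class of effective length, which holds 60 of the 81, 45.5% of all genes were called higher and 14.1% lower with PMA. Leaving out control replicate 2 and As2S2 replicate 1 together gave 51 higher with As2S2. With the length trend removed, 51 were higher and 11 lower with PMA. In the As2S2-against-PMA contrast, which shares both sets of libraries with those above, 3 nuclear members were higher and 60 lower (background 30.9% and 30.6%, or 61.4% in either direction), and 0 mitochondrial ones were higher and 9 lower; with the length trend removed these were 14, 37, 3 and 6.

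**Figure D4:**
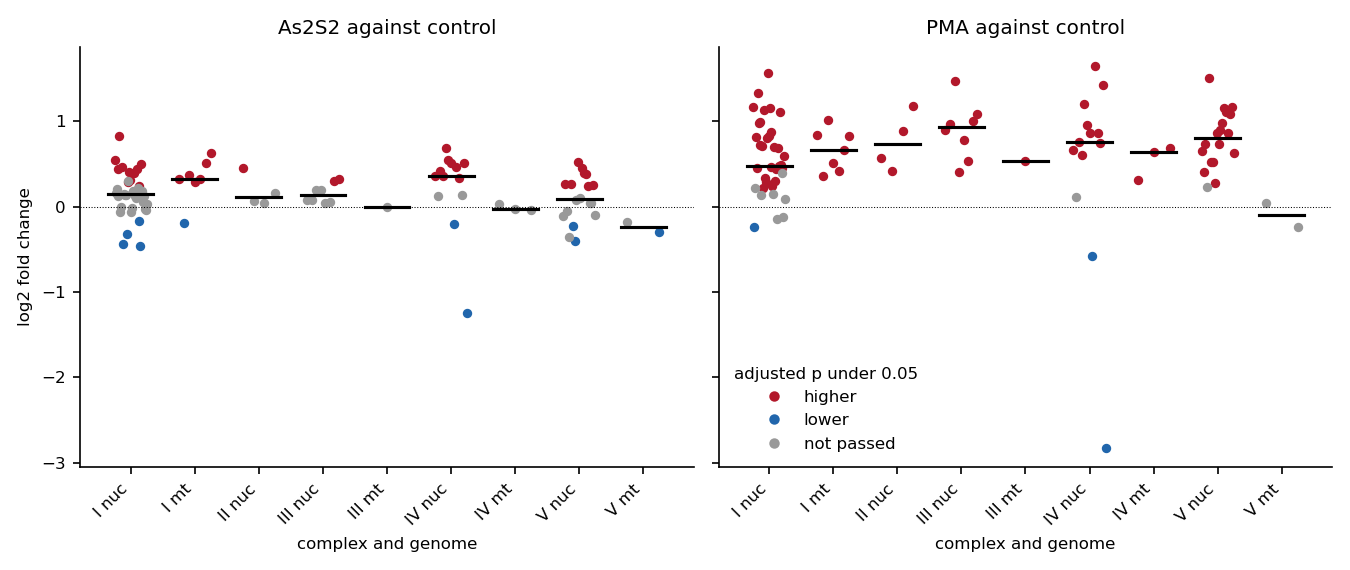
Log2 fold change (y axis) of each tested member by complex and genome (x axis; nuc, nuclear; mt, mitochondrial), As2S2 against control on the left and PMA against control on the right; bars are medians and colours give the call. The nuclear medians of complexes I to V are all above 0 in both panels, and the complex V mitochondrial medians lie below 0.

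Complex I has 36 nuclear members. With As2S2, 11 were higher and 4 lower (median 0.14), and with PMA 28 were higher and 1 lower (median 0.48). NDUFA2, an accessory subunit of the peripheral arm, had 112, 131 and 123 CPM with As2S2, 178, 172 and 165 CPM with PMA, and 63.6, 77.6 and 64.3 CPM in control. No groups overlapped, and the log2 fold change was 0.83 ± 0.09 for As2S2 (edgeR adjusted p = 2.01e-06) and 1.33 ± 0.09 for PMA (edgeR adjusted p = 1.66e-09). NDUFB3, an accessory membrane-arm subunit, had 82.9, 68.6 and 75.4 CPM with As2S2, 173, 172 and 160 CPM with PMA, and 57.2, 55.0 and 58.8 CPM in control, the steepest rise of the complex under PMA (1.56 ± 0.08). NDUFA1 (0.55 with As2S2, 1.17 with PMA) and NDUFS5 (0.49 and 1.11), named for their small adjusted p, were higher in both. Outside the rule for named genes, and picked after their values were seen, NDUFA10 was the complex I member called lower with PMA (-0.23), and NDUFA7 (-0.43) was lower with As2S2 and did not pass with PMA (0.14).

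Complex II, wholly nuclear, split between the treatments. All 4 subunits rose with PMA: SDHD by 1.18, SDHC by 0.89, SDHA by 0.56 and SDHB by 0.41 on the log2 scale. SDHC and SDHD anchor the complex in the membrane, and SDHA and SDHB carry its flavin and iron-sulphur centres. With As2S2, SDHA was called higher (1 of 4, or 25%, near the 20.3% of all genes) and the others did not pass. SDHD did pass without As2S2 replicate 2 (0.23, edgeR adjusted p = 0.0464). SDHA had 92.3, 108 and 111 CPM with As2S2, against 72.8, 78.1 and 77.2 CPM in control (0.45 ± 0.08, edgeR adjusted p = 0.000264), while SDHD stood at 0.16, SDHB at 0.06 and SDHC at 0.04. SDHA has near-identical pseudogene copies, so its counts are uncertain where reads could be split. With the length trend removed, SDHB did not pass with PMA (0.14, edgeR adjusted p = 0.0535).

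All 8 tested nuclear members of complex III rose with PMA (median 0.93). The symbol pattern leaves out CYC1, cytochrome c1 of this complex, which did not pass in either contrast with control. With As2S2, 2 of 8 rose (25%, near the 20.3% of all genes called higher). UQCRB, a small subunit of the cytochrome bc1 complex, had 347, 281 and 280 CPM with As2S2, 736, 765 and 706 CPM with PMA, and 268, 258 and 267 CPM in control. Its PMA values lay far above both other groups (1.48 ± 0.08, edgeR adjusted p = 1.88e-10), and it did not pass with As2S2 (0.20, edgeR adjusted p = 0.0629). That value lay near the threshold: it passed without As2S2 replicate 2 (0.25) or 3 (0.25), with the stricter filter (0.21) and with the length trend removed (0.23). UQCRH, the hinge subunit, was higher with As2S2 (0.29, edgeR adjusted p = 0.00542) and with PMA (edgeR adjusted p = 1.03e-08), at 1243, 1082 and 1054 CPM with As2S2, 1943, 1885 and 1682 CPM with PMA, and 895, 936 and 924 CPM in control, as was UQCRQ (0.32 and 1.09). UQCRHL, a near copy of UQCRH, was at or near 0.

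Complex IV had the highest nuclear median with As2S2, 0.36, with 9 of 13 tested members higher and 2 lower. With PMA, 10 were higher and 2 lower (median 0.75). COX7B, a small membrane subunit, had 155, 138 and 139 CPM with As2S2, 341, 332 and 307 CPM with PMA, and 106, 106 and 102 CPM in control. The groups did not overlap, and the log2 fold change was 0.46 ± 0.07 for As2S2 (edgeR adjusted p = 8.38e-05) and 1.65 ± 0.07 for PMA (edgeR adjusted p = 9.31e-12). NDUFA4, named for complex I but counted here in complex IV, rose by 0.51 and 1.43, COX6B1 by 0.68 and 1.20, and COX6C by 0.54 and 0.95.

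In the isoform sets of complex IV, the widely expressed forms held nearly all counts. The liver-type or general forms COX4I1 (0.36 with As2S2, 0.66 with PMA), COX6A1 (0.36 and 0.61) and COX7A2 (0.51 and 0.86) rose in both, while their partners COX4I2, COX6A2 and COX7A1 had no counts. COX6B2 had at most 0.751 CPM in any library and COX7B2 at most 0.0522 CPM. With the length trend removed, COX6A1 did not pass with PMA (0.10, edgeR adjusted p = 0.169). COX8A rose with PMA (0.75), did not pass with the trend removed (0.21, edgeR adjusted p = 0.123), and stood at 0.14 with As2S2. COX8A passed with As2S2 without control replicate 2 (0.36, edgeR adjusted p = 0.00712).

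COX7A2L, a supercomplex assembly factor, and NDUFA4L2, a hypoxia-inducible NDUFA4 paralogue, fell in both treated groups. COX7A2L had 200, 217 and 218 CPM with As2S2, 166, 165 and 158 CPM with PMA, and 234, 254 and 243 CPM in control, with no overlap (-0.20 ± 0.07, edgeR adjusted p = 0.0204, and -0.58 ± 0.07, edgeR adjusted p = 1.16e-06). Its As2S2 call was lost without control replicate 3 (-0.20, edgeR adjusted p = 0.0571). Its effective length was longer with PMA by 0.34 on the log2 scale. NDUFA4L2 was scarce, at 0.991, 1.11 and 1.20 CPM with As2S2, 0.432, 0.404 and 0.269 CPM with PMA, and 2.50, 2.95 and 2.45 CPM in control (-1.25 ± 0.25 and -2.82 ± 0.31 on the log2 scale).

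In complex V, 8 of 18 tested nuclear members were higher and 2 lower with As2S2 (median 0.09), and 17 were higher and none lower with PMA (median 0.80). ATP5F1E, the epsilon subunit of the central stalk, had 163, 176 and 172 CPM with As2S2, 389, 386 and 436 CPM with PMA, and 125, 165 and 136 CPM in control. PMA libraries were far above the rest (1.51 ± 0.09, edgeR adjusted p = 5.39e-10), and the As2S2 call (0.26, edgeR adjusted p = 0.0282) was lost without control replicate 1 (0.19, edgeR adjusted p = 0.125), and likewise without control replicate 3 or As2S2 replicate 2 or 3. ATP5MJ (0.38 with As2S2, 1.15 with PMA), ATP5MF (0.46 and 0.90), ATP5MK (0.24 and 1.10) and ATP5MC3 (0.52 and 0.86) rose in both. The As2S2 call of ATP5MK was lost with the length trend removed (0.12, edgeR adjusted p = 0.2).

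The c-ring genes ATP5MC1, ATP5MC2 and ATP5MC3 encode the same mature protein. They moved apart with As2S2, while all were called higher with PMA. ATP5MC1 had 70.3, 77.5 and 83.5 CPM with As2S2, 151, 147 and 142 CPM with PMA, and 95.3, 112 and 98.8 CPM in control. It was lower with As2S2 (-0.40 ± 0.08, edgeR adjusted p = 0.00101) and higher with PMA (0.53 ± 0.09, edgeR adjusted p = 3.13e-05). ATP5MC2 stood at 0.08 with As2S2, passed without control replicate 2 (0.24, edgeR adjusted p = 0.0192) and without both outlying libraries (0.32, edgeR adjusted p = 7.89e-06), and was higher with PMA (0.28, edgeR adjusted p = 0.0277), but turned to -0.16 (edgeR adjusted p = 0.092) with the length trend removed, and lost its PMA call without control replicate 1 (0.18, edgeR adjusted p = 0.152) or 3 (0.23), or PMA replicate 1 (0.29) or 3 (0.26).

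Besides ATP5MC1, the nuclear members called lower with As2S2 and higher with PMA were NDUFS4, NDUFB10 and ATP5IF1, and MT-ND2 was the mitochondrial one. NDUFS4, an accessory subunit needed for stable complex I, had 41.3, 31.7 and 36.5 CPM with As2S2, 72.1, 72.2 and 64.8 CPM with PMA, and 50.9, 50.2 and 49.7 CPM in control (-0.46 ± 0.09 and 0.47 ± 0.09 on the log2 scale). ATP5IF1, the inhibitor of ATP hydrolysis by ATP synthase, had 38.3, 44.4 and 43.0 CPM with As2S2, 68.7, 69.8 and 73.2 CPM with PMA, and 46.4, 52.8 and 48.6 CPM in control. NDUFB10 had 33.1, 39.6 and 39.8 CPM with As2S2, 59.6, 59.8 and 57.4 CPM with PMA, and 46.3, 52.3 and 41.9 CPM in control. Their groups did not overlap. The PMA calls of all 5 were lost with the length trend removed, at log2 fold changes of 0.04 for NDUFS4, 0.003 for ATP5MC1, 0.005 for ATP5IF1, -0.08 for NDUFB10 and 0.09 for MT-ND2. The As2S2 calls of NDUFB10 and ATP5IF1 were weak. NDUFB10 did not pass without As2S2 replicate 1 (-0.23, edgeR adjusted p = 0.0567), control replicate 2 (-0.23, edgeR adjusted p = 0.0533) or both (-0.15, edgeR adjusted p = 0.0826). ATP5IF1 did not pass without both (-0.12, edgeR adjusted p = 0.135), without any 1 of 7 libraries (As2S2 replicate 1 or 3, control replicate 2 or 3, or any PMA replicate; -0.25 to -0.17), without the filter, or with only the 2 groups compared.

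**Figure D5:**
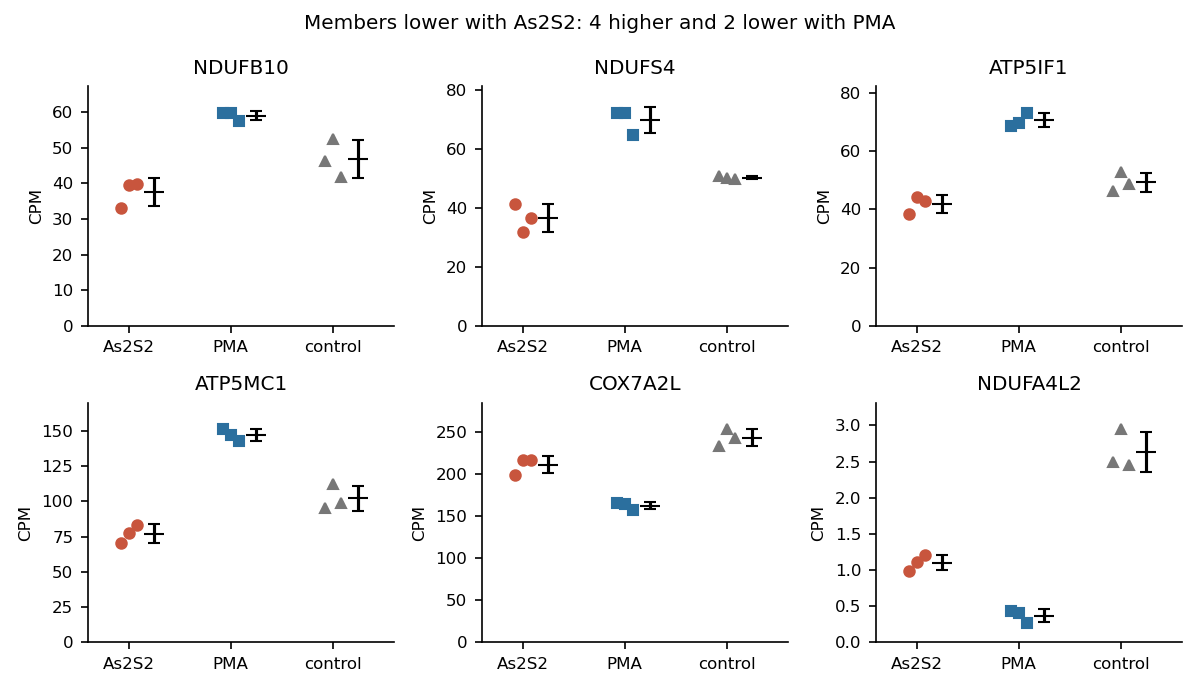
CPM (y axes, from 0) of 6 nuclear members by library, with mean and SD of 3, for As2S2, PMA and control (x axis). NDUFB10, NDUFS4, ATP5IF1 and ATP5MC1 are below control with As2S2 and above it with PMA, and COX7A2L and NDUFA4L2 are below control in both.

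Genes that build the complexes were more often called lower than higher with As2S2, unlike the subunits; this difference was not tested. Over 56 assembly factors, 6 were higher and 23 lower with As2S2 (median -0.16), and 28 were higher and 11 lower with PMA (median 0.21). Over all genes, 20.3% were called higher and 19.6% lower with As2S2, and 30.8% and 31.1% with PMA, which is the background for the lists that follow too. The lower ones with As2S2 included TIMMDC1 (-0.65, complex I), SDHAF3 (-0.94) and SDHAF4 (-0.70, complex II), and FMC1 (-1.25, complex V). SDHAF2 (0.23, complex II) and NDUFAF7 (0.28, complex I) were among the higher ones. Both calls were lost without As2S2 replicate 2 (0.22 and 0.30), among other settings. PET100, which helps assemble complex IV, was higher with As2S2 (0.67) and PMA (1.37), as was COX16 (0.39 and 1.05). BCS1L, which inserts the Rieske protein into complex III, was lower in both (-0.35 and -0.75).

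Of 14 genes of mitochondrial DNA maintenance and transcription, 1 was higher and 8 lower with As2S2, and 6 were higher and 2 lower with PMA. The accessory polymerase subunit POLG2 (-0.93) and the rRNA methyltransferase TFB1M (-0.79) were lower with As2S2, and the helicase TWNK was lower in both (-0.40 and -0.71). LRPPRC, which stabilises mitochondrial mRNAs, fell by 1.41 with PMA, while its partner SLIRP rose by 0.72; SLIRP did not pass with the length trend removed (0.05). Among 7 tested regulators of respiratory genes, 3 were lower and none higher in each contrast, PPRC1 (-0.24 with As2S2, -1.18 with PMA) and GABPA (-0.42 and -0.44) in both. NRF1 was lower with PMA (-0.30), a call lost without PMA replicate 3 (-0.26) or control replicate 3 (-0.30), and with the length trend removed (-0.19). The As2S2 calls of PPRC1 and GABPA were lost without control replicate 1 (-0.22 and -0.33), among other libraries, and the PMA call of GABPA with the length trend removed (-0.12). Outside the subunit pattern, cytochrome c (CYCS) rose by 0.91 and NDUFAB1 by 0.75 with PMA, while CYC1 did not pass.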

How the data were processed

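Polyadenylated RNA libraries (NEBNext Ultra II) of 3 groups of 3 were deposited as estimated counts and TPM per gene in 2 pairwise tables; the authors' log2 fold changes, fold ratios and adjusted p-values stand beside the counts in the same deposited tables. The submitters' processing notes name fastp 0.22.0, DESeq2 and the zebrafish builds GRCz11 and danRer11, although the gene IDs are human; 1 control library carries an organism label other than human. No source used here names the aligner, counter, strand setting or annotation. Gene type came from GENCODE 29 and RefSeq by gene ID.

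Estimated counts were rounded, since they need not be whole, and fitted in edgeR 4.0.16 (R 4.3.3) with TMM scaling, filterByExpr and all 9 libraries in 1 quasi-likelihood fit, with Benjamini-Hochberg adjustment over 14592 genes at 0.05. CPM are TMM-scaled counts; TPM, per length, compare levels between genes. Effective length is the ratio of count to TPM. On deposited TPM the median log2 fold change of all genes was -0.103 for As2S2 and -0.399 for PMA, so log2 fold changes come from counts. Alternatives were DESeq2 1.42.0, limma 3.58.1 (voom, and log2(TPM + 0.1)), other scalings and filters, a replicate block, a length trend removed and each library left out. The length trend was a lowess (span 0.3) fitted in each library and entered as an offset in the count model. It was fitted to each gene's log2 CPM minus its mean over all libraries, on log2 effective length. The authors' deposited tables call 28 nuclear members higher and 6 lower with As2S2, and 66 and 4 with PMA; for mitochondrial members these were 6 and 2, and 11 and 1. Named were all mitochondrial members, the 3 nuclear members of smallest adjusted p per complex and contrast, and those called in opposite directions. Isoform sets, SDHA to SDHD and ATP5IF1 were named too, with up to 3 genes per other list that passed, not all of which are given. Members and lists were chosen with earlier results of these data known. The values of 1 member are not reported here.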

Additional observations from a re-analysis of the deposited data

How the results depend on the processing

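Replicate numbers did not pair the libraries (correlations of same-numbered deviations 0.149, 0.0844 and -0.073 for As2S2 with control, and 0.0393, 0.0155 and -0.00787 for PMA with control). With the replicate block, 35 nuclear members were higher and 7 lower with As2S2, and 70 higher and 4 lower with PMA. Leaving out libraries gave 28 to 51 nuclear members higher and 5 to 10 lower, and 0 to 3 mitochondrial ones lower, with As2S2; 0 to 1 mitochondrial lower with PMA; and 3 to 6 nuclear higher in As2S2 against PMA. Of these, 51 is without both outlying libraries.

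At an adjusted p of 0.01, 4 nuclear and 0 mitochondrial members were lower with As2S2 (0 mitochondrial with centred TPM). Mitochondrial members lower with PMA numbered 1, MT-ATP8, with RLE scaling, DESeq2, no filter, only the 2 groups compared and the replicate block. With the length trend removed, 11 nuclear and 3 mitochondrial members were lower with PMA, the same counts with the block added; As2S2 against PMA then had 14 nuclear higher (13 with the block), 37 nuclear lower (37) and 3 mitochondrial higher (4). On TPM as deposited, an alternative chosen after seeing the data whose median gene is itself shifted, 45 nuclear members were higher and 13 lower and 4 mitochondrial higher and 3 lower with PMA, and 15 nuclear and 2 mitochondrial were higher in As2S2 against PMA. On centred TPM, also added afterwards, 6 nuclear were higher in As2S2 against PMA. The log2 nuclear to mitochondrial ratio was 0.43 for As2S2 and 0.57 for PMA from median TPM. It was 0.16 and 0.13 without the member of highest TPM on each side, and 0.21 for PMA from summed CPM. From median TPM, As2S2 overlapped control (ratios of 0.0354 in As2S2 replicate 1 and 0.0355 in control replicate 3), while PMA did not.

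Directions turned as follows, and the cause was not tested. On TPM as deposited, with PMA: MT-ND2 -0.13, MT-ND4L -0.076, MT-CO1 -0.16, MT-ATP6 -0.43, ATP5MC1 -0.024, NDUFB10 -0.16, ATP5MC2 -0.19, SDHB -0.065, CYCS -0.27 and UQCC1 -0.071; with As2S2: MT-CO1 -0.093, SDHC -0.12, ATP5MC2 -0.033 and SDHB -0.066. With the length trend removed (then with the block), under PMA: MT-ND4L -0.38 (-0.37), MT-ATP6 -0.38 (-0.38), NDUFB10 -0.079 (-0.078) and ATP5MC2 -0.16 (-0.16); under As2S2, MT-CYB 0.021 (0.023). MT-CYB with As2S2 was 0.0036 with the stricter filter and 0.027 on centred TPM, MT-CO2 0.013 and, with PMA, LYRM7 0.43 on centred TPM; MT-ATP6 was -0.0067 with PMA without the filter. Leaving out libraries gave ranges for As2S2 of -0.039 to 0.032 for MT-CYB, -0.014 to 0.086 for MT-CO1, -0.13 to 0.10 for MT-CO2, -0.10 to 0.053 for MT-CO3, -0.0015 to 0.091 for SDHC and -0.012 to 0.32 for ATP5MC2, and for PMA of -0.064 to 0.15 for MT-ATP6. Genes with few counts, such as NDUFA4L2, are limited by depth.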

Other observations

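The mitochondrial rRNAs, which carry only short tails and are captured in part by poly(A) selection, differed in size of change. MT-RNR1, the small-subunit rRNA, had 2333, 2021 and 2054 CPM with As2S2, 7030, 6934 and 6556 CPM with PMA, and 2687, 3065 and 2792 CPM in control, so that PMA lay far above the other groups. MT-RNR2, the large-subunit rRNA, had 13765, 10605 and 10253 CPM with As2S2, 20864, 20169 and 19317 CPM with PMA, and 14068, 11968 and 12543 CPM in control. With PMA both were higher, by 1.26 for MT-RNR1 and 0.65 for MT-RNR2 on the log2 scale; with As2S2 MT-RNR1 was lower (-0.42) and MT-RNR2 stood at -0.16 and did not pass.

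Of 13 citric acid cycle genes outside complex II, 4 were higher and 2 lower with As2S2, where 20.3% of all genes were called higher and 19.6% lower. With PMA 4 were higher and 2 lower, against 30.8% and 31.1% of all genes, so the counts are not read as a result about the set. Citrate synthase (CS) was higher with As2S2 (0.19) and lower with PMA (-0.43), while fumarase (FH, 0.85) and SUCLG1 (0.64) rose with PMA; the As2S2 call of CS was lost without control replicate 3 (0.17), and likewise without As2S2 replicate 2 or 3.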
